A study of Mus musculus with 25 samples.

Results

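Transcripts of 42 lysosomal genes were measured in mouse peritoneal macrophages of 6 genotypes. The 42 genes encode soluble lysosomal enzymes, their activators, proteins of the lysosomal membrane and the regulator TFEB, and were taken by symbol from a table of 13266 genes, of which 13252 were tested. All 42 were present and all passed the filter on low values, which asked for 10 or more normalized counts in 4 or more libraries. Total RNA was sequenced from untreated macrophages at Day 0, with 4 libraries each of RIG-I KO, SAMHD1 RIG-I DKO, MDA5 KO, SAMHD1 MDA5 DKO and SAMHD1 KO and 5 of WT, 25 in all. RIG-I (gene Ddx58) and MDA5 (gene Ifih1) are cytosolic sensors of RNA, and SAMHD1 hydrolyses deoxynucleotides and restrains interferon responses. Below, the RIG-I-deficient lines are RIG-I KO and SAMHD1 RIG-I DKO (8 libraries), the MDA5-deficient lines are MDA5 KO and SAMHD1 MDA5 DKO (8 libraries), and the lines with both sensors are SAMHD1 KO and WT (9 libraries). The labels give no age, strain background, targeting method or number of animals, and do not tell whether libraries stem from separate animals. The p-values therefore reflect the spread between these libraries, which may be technical.

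Lysosomes are acidic organelles in which macromolecules from endocytosis, phagocytosis and autophagy are broken down. Proteases (cathepsins and tripeptidyl peptidase), glycosidases, sulfatases and lipases work in their lumen, many of them sorted there by mannose 6-phosphate tags, while membrane proteins guard the limiting membrane and carry cholesterol, cystine, ions and other products out. TFEB and its relatives bind a short motif around CACGTG in the promoters of many of these genes and raise them together, and inherited loss of single members causes lysosomal storage diseases. Macrophages are rich in lysosomes and rely on them to digest what they engulf.

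Promoters of 37 of the 42 genes were matched by symbol in RefSeq windows of 250 bases before to 50 bases after the start of transcription (build GRCm38.p6). Ctsb, Ctsh, Npc1, Asah1 and Hgsnat had no entry. CACGTG, the core of the motif bound by TFEB, was present in 12 of the 37 genes (32.4%), against 11.9% of the 9556 genes tested that had a window and 8.09% of all 27025 genes of the table. TCACGTGA, a longer form that contains CACGTG, was present in Cln3, Ctsa, Ctsd, Gla and Mcoln1 (13.5%), against 2.22% of genes tested. Both motifs read the same on either strand, so 1 search covers both. The windows shown are those with CACGTG of the 5 genes that were lower in RIG-I-deficient lines (below), Gaa, Glb1, Arsa, Sgsh and Ctsa, and that of Lamp1, which holds 4 copies and was not called. They are given 5′ to 3′ on the strand of the gene, with the longest motif at each site in capitals. The windows lie at chr11:119267713-119268012 (plus strand), chr9:114400828-114401127 (plus strand), chr15:89477375-89477674 (minus strand), chr11:119355461-119355760 (minus strand), chr2:164833523-164833822 (plus strand) and chr8:13158911-13159210 (plus strand).
Gaa: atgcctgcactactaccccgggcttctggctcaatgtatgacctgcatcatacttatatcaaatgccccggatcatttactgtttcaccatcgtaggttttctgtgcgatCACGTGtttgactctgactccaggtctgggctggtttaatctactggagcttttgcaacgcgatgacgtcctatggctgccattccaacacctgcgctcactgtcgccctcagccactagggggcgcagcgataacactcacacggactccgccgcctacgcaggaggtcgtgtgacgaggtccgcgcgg
Glb1: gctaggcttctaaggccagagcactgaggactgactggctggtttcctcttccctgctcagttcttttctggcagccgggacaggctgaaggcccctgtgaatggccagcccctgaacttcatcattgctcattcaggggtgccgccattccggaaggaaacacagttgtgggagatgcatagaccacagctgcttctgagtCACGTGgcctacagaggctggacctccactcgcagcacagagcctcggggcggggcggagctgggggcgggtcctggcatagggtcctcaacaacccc
Arsa: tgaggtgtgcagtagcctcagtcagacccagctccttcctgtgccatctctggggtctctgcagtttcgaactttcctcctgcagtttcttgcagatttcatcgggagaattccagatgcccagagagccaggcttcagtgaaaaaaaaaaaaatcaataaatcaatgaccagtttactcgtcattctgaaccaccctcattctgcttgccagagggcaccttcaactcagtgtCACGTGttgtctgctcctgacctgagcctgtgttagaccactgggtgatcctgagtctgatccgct
Sgsh: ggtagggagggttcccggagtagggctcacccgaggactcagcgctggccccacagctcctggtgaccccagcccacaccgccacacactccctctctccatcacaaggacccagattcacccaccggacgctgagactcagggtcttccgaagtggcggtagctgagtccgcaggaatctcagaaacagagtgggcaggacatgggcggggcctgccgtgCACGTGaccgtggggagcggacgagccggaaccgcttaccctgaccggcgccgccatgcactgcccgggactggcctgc
Ctsa: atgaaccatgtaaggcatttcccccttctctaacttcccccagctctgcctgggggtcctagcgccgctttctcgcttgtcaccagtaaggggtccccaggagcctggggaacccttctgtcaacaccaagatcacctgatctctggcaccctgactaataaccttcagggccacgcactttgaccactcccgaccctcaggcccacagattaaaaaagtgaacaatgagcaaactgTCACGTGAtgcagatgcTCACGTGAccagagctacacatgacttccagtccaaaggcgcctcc
Lamp1: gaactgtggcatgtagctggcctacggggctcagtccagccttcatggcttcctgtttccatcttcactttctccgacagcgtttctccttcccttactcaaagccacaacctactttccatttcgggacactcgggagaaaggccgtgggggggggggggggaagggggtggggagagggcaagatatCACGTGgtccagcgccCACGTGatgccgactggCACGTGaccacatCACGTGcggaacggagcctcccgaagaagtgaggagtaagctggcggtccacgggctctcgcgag
Of the genes with a window, 5 of 14 called lower in RIG-I-deficient lines had CACGTG (35.7%), and 7 of 23 not called (30.4%). A match describes the letters of a window and is no measurement of binding.

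The listed genes held 25886469 to 39590589 reads per library, and the least abundant member, Gla, averaged 673 normalized counts, so counting error was small for every member. Values are normalized counts, that is reads divided by the size factor of the library. Library numbers follow the order of columns and serve as names only. The titles of 2 of the 4 SAMHD1 KO samples read SAMHD1_DEL, and columns could not be tied to titles. Ddx58 was at 202 ± 7.36 in RIG-I KO libraries and 264 ± 38.3 in SAMHD1 RIG-I DKO (SD, n = 4 each), against 1982 ± 241 in SAMHD1 KO (n = 4) and 1536 ± 204 in WT (n = 5), as the labels say. SAMHD1 KO library 2 and SAMHD1 MDA5 DKO library 3 kept intermediate Samhd1, 4767 and 4952 normalized counts, where WT libraries had 6486 to 12817. SAMHD1 KO library 2 and WT library 3 stood apart from the other 23 on the first principal component and carry the last library codes of the column headers. The other codes run on within each genotype, so that code and genotype cannot be told apart. Macrophage markers were high in all libraries, with Adgre1 (F4/80) between 74937 and 124973 normalized counts.

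As a score over the 42 genes, the mean of the deposited variance-stabilized log2 values was taken in each library. It was 12.98, 12.95, 13.04 and 12.98 in the RIG-I KO libraries and 13.02, 12.97, 13.02 and 12.98 in SAMHD1 RIG-I DKO. MDA5 KO had 13.05, 13.21, 13.28 and 13.08, and SAMHD1 MDA5 DKO 13.09, 13.12, 13.08 and 13.05. SAMHD1 KO had 13.20, 12.91, 13.19 and 13.14, and WT 13.19, 13.31, 12.92, 13.17 and 13.22. The 2 libraries that stood apart, SAMHD1 KO 2 and WT 3, were the lowest of all 25, and the 8 RIG-I-deficient libraries took ranks 3 to 10 from the bottom, below all 15 others, of which MDA5 KO 1 was lowest. This order depended on how the score was taken. With quantile normalization the RIG-I-deficient libraries ran from 12.98 to 13.07, MDA5 KO 1 (13.02), SAMHD1 MDA5 DKO 4 (13.02), SAMHD1 MDA5 DKO 1 (13.03) and SAMHD1 KO 2 (13.03) fell inside that range, and WT 3 (13.10) lay above it. As medians over members the RIG-I-deficient libraries ran from 12.61 to 12.88, with SAMHD1 RIG-I DKO 2 the highest. Inside that range lay MDA5 KO 1 (12.76) and MDA5 KO 4 (12.80). So did SAMHD1 MDA5 DKO 1 (12.79), SAMHD1 MDA5 DKO 3 (12.77) and SAMHD1 MDA5 DKO 4 (12.74). SAMHD1 KO 3 (12.77) and SAMHD1 KO 4 (12.87) lay inside it too. The order of the genotype means was RIG-I KO (12.99 ± 0.036, SD), SAMHD1 RIG-I DKO (13.00 ± 0.027), SAMHD1 MDA5 DKO (13.09 ± 0.027), SAMHD1 KO (13.11 ± 0.14), MDA5 KO (13.16 ± 0.11) and WT (13.16 ± 0.15). The 2 RIG-I-deficient genotypes did not differ beyond their spread, and neither did the other 4 among themselves. The score was 0.14 lower on the log2 scale in RIG-I-deficient lines than in lines with both sensors, and 0.21 lower without the 2 libraries that stood apart. In SAMHD1 RIG-I DKO over SAMHD1 KO the difference of the mean-based scores was -0.11, and its sign turned when medians over members were used (0.0257). Since the members are not replicates of one another, the score is described by its values and carries no test. In bulk samples, fewer cells of a type and less RNA per cell cannot be told apart.

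**Figure D1:**
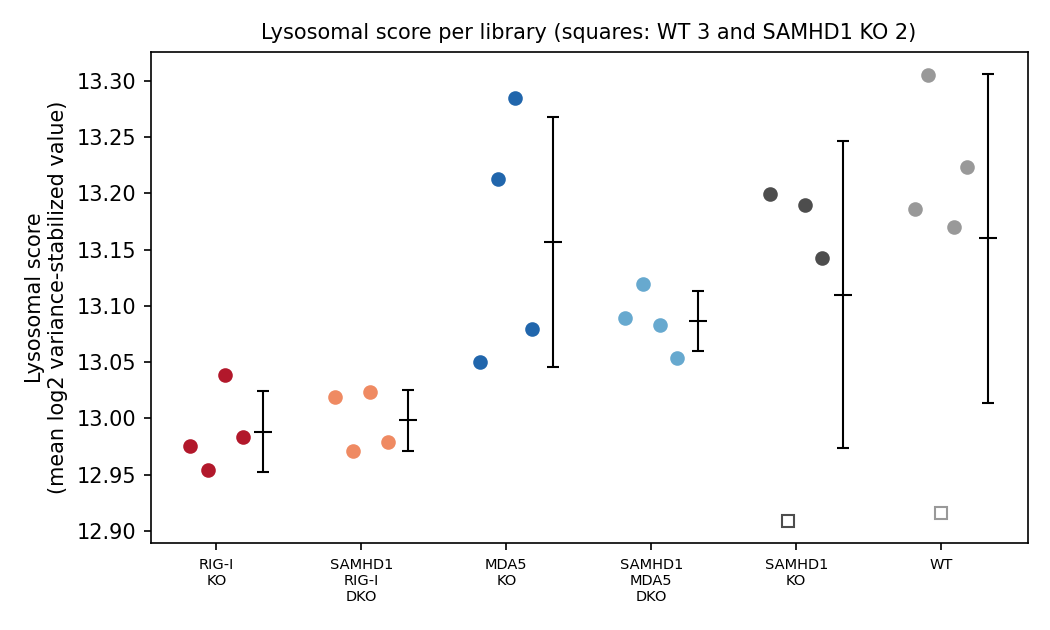
Mean log2 variance-stabilized value of the 42 lysosomal genes (y axis) in each of 25 libraries by genotype (x axis), with the mean and SD of each genotype as bars. The 8 RIG-I KO and SAMHD1 RIG-I DKO libraries lie between 12.95 and 13.04, above only SAMHD1 KO 2 and WT 3 (open squares).

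Against lines with both sensors, RIG-I-deficient lines had less transcript of 15 of the 42 genes and more of none at an adjusted p under 0.05 (limma with Benjamini-Hochberg adjustment over 13252 genes). They include the glycosidases Gaa, Glb1, Idua and Man2b1, the sulfatases Arsa, Arsb and Sgsh, the growth factor and lysosomal cofactor Grn, and the cholesterol transporter Npc1. All 15 changes were moderate, between 13.9% and 29.8% lower. The share called lower was 35.7% of the members, against 13.9% of all genes tested, and 21.3% of the 6004 genes at least as abundant as the least abundant member. No member was called higher, where 12.7% of all genes were. The members were chosen with earlier results of these data known, so the shares here and below are described and carry no test. Of the 42 log2 fold changes 33 were negative, with a median of -0.14, against a median of -0.01 over all genes. With quantile normalization the split was 17 lower and 3 higher (against 13.9% and 12.3% of all genes): Ctsh, Asah1 and Ppt1 were then called higher, and Laptm5 and Man2b1 were no longer called. Without SAMHD1 KO 2 and WT 3 it was 26 lower and 1 higher (Mcoln1, 0.30, adjusted p = 0.00352), beside 17.5% of all genes lower and 17.6% higher. With all 25 libraries Mcoln1 was not called and its log2 fold change was negative.

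**Figure D2:**
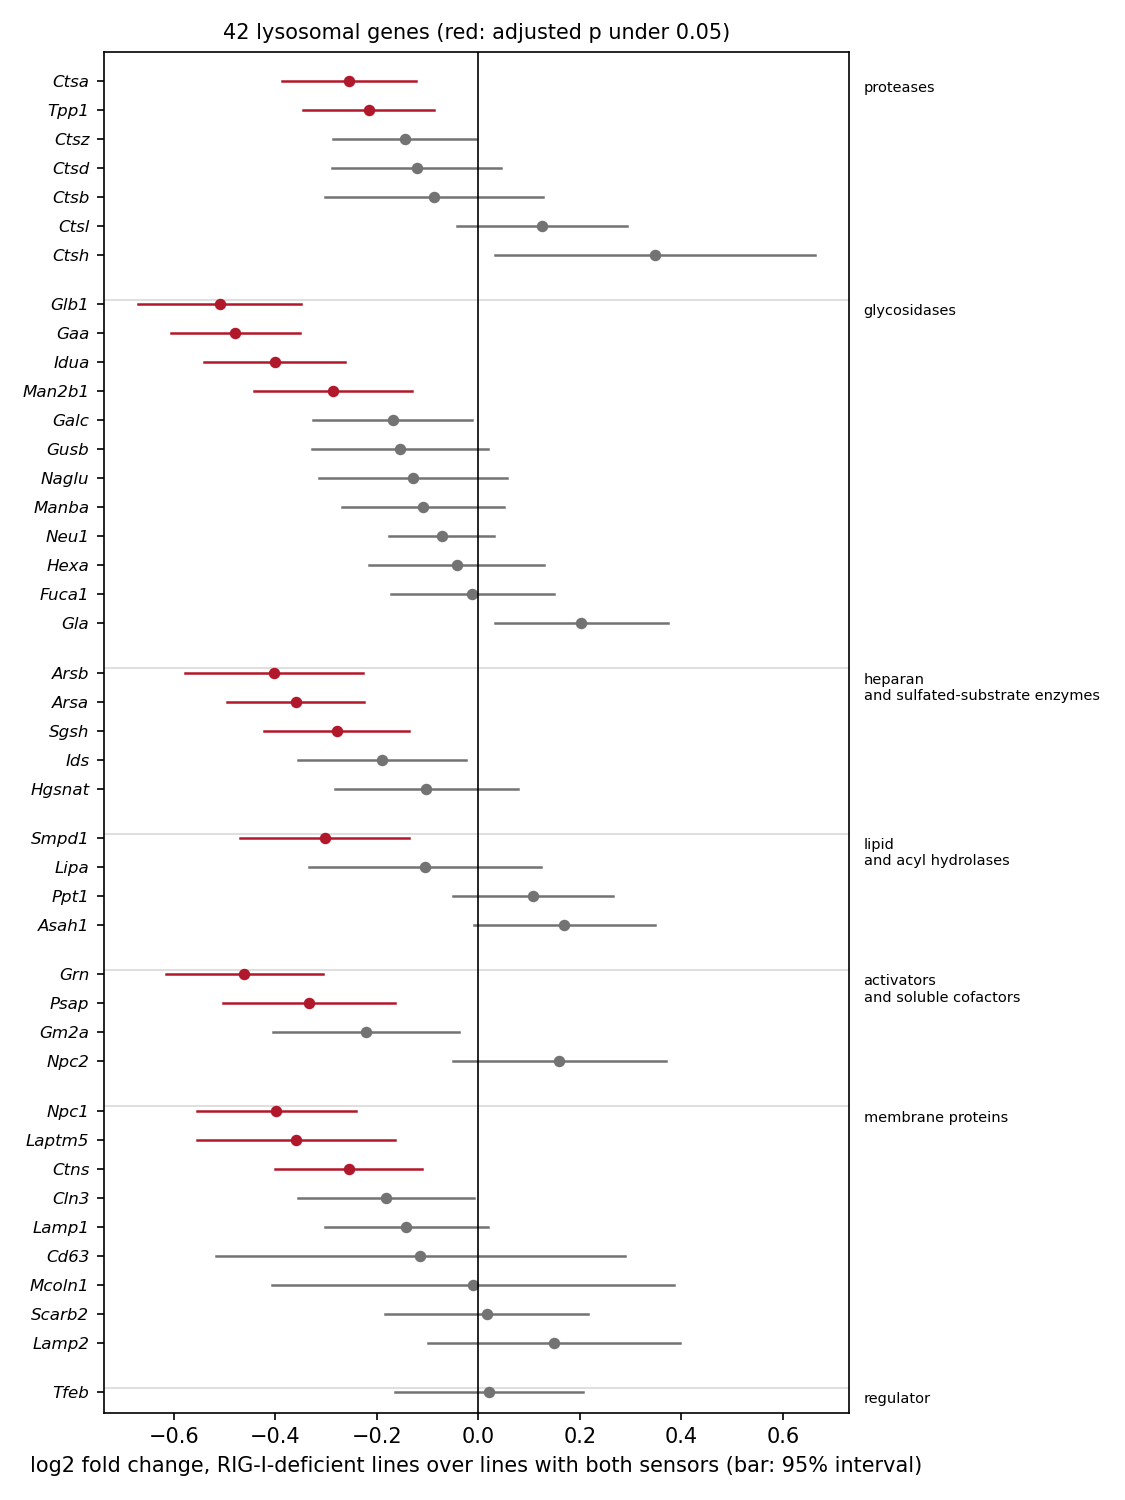
Log2 fold change of each of the 42 genes in RIG-I-deficient lines over lines with both sensors (x axis, points) with its 95% interval (bars), by role group (y axis). The 15 genes called are red and all lie left of 0, from Tpp1 at -0.22 to Glb1 at -0.51.

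Of the 12 glycosidases 4 were called lower, among them Glb1 and Gaa, the 2 members with the most negative fold changes. Gaa (chr11:119267887-119285454, plus strand, GRCm38) encodes acid alpha-glucosidase, which degrades glycogen. Its normalized counts were 5921, 6039, 6368 and 6258 in the RIG-I KO libraries and 5655, 5467, 6144 and 5551 in SAMHD1 RIG-I DKO, against 8138, 7595, 7768 and 7648 in SAMHD1 KO and 8818, 9615, 8660.4, 7798 and 8916 in WT. All 8 RIG-I-deficient libraries lay below all 9 with both sensors. The log2 fold change was -0.48 ± 0.06 (SE), 28.3% lower, with an adjusted p of 5.74e-05. Glb1 (chr9:114401076-114474898, plus strand) encodes beta-galactosidase, which acts on gangliosides and keratan sulfate. It had 10496, 10188, 11474 and 12002 in the RIG-I KO libraries and 9545, 10179.9, 10513 and 10038 in SAMHD1 RIG-I DKO, against 15201, 12126, 13453 and 16093 in SAMHD1 KO and 17950.4, 17082, 13125, 17061 and 14849 in WT. The groups did not overlap, but the gap was narrow: RIG-I KO 4 stood just under SAMHD1 KO 2. The log2 fold change was -0.51 ± 0.08 (adjusted p = 0.000214).

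Idua (chr5:108660331-108684557), alpha-L-iduronidase of dermatan and heparan sulfate breakdown, had 1162, 1201, 1394 and 1312 in the RIG-I KO libraries and 1278, 1251, 1349 and 1227 in SAMHD1 RIG-I DKO, against 1636, 1794, 1809 and 1509 in SAMHD1 KO and 1633, 1888, 1710.3, 1455 and 1707 in WT. No RIG-I-deficient library reached the lowest of the 9 others, WT 4, and the log2 fold change was -0.40 ± 0.07 (adjusted p = 0.000458). Man2b1, lysosomal alpha-mannosidase and the most abundant glycosidase by normalized count, ran from 83875 to 94256 in RIG-I-deficient libraries and from 92532 to 129621 in those with both sensors. Only RIG-I KO 2 rose above WT 3, the lowest library with both sensors, and the log2 fold change was -0.29 ± 0.08 (adjusted p = 0.00755). The other 8 glycosidases were not called. Gla, alpha-galactosidase A, had a positive value, 0.20 ± 0.08 (adjusted p = 0.0718), and Hexa, the alpha subunit of beta-hexosaminidase, varied least of the glycosidases over the genotypes, at -0.04 ± 0.08 (interval -0.21 to 0.13). Galc, galactosylceramidase, had -0.17 ± 0.08, Gusb, beta-glucuronidase, -0.15 ± 0.08, Neu1, the sialidase, -0.07 ± 0.05, Manba, beta-mannosidase, -0.11 ± 0.08, and Fuca1, alpha-L-fucosidase, -0.01 ± 0.08. Naglu, of heparan sulfate breakdown, had -0.13 ± 0.09 (adjusted p = 0.307), and it was among the genes whose RIG-I-deficient libraries all lay below the 7 remaining libraries once SAMHD1 KO 2 and WT 3 were left out.

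Of the enzymes of heparan and other sulfated substrates, 3 of 5 were called lower, all of them sulfatases. Arsa (chr15:89472476-89477425), arylsulfatase A of sulfatide breakdown, had 4173, 4408, 4366 and 4431 in the RIG-I KO libraries and 4185, 3526, 4038 and 3619 in SAMHD1 RIG-I DKO, against 4977, 4269, 5179 and 5283 in SAMHD1 KO and 5814, 5624, 6138, 4649 and 5829.9 in WT. SAMHD1 KO 2 overlapped the RIG-I-deficient libraries and no other library with both sensors did. The log2 fold change was -0.36 ± 0.07 (adjusted p = 0.000863). Arsb, arylsulfatase B of dermatan sulfate breakdown, had its lowest, median and highest values at 1159, 1306 and 1504 in the 8 RIG-I-deficient libraries, against 1379, 1884 and 1942 in the 9 with both sensors. The overlap again came from SAMHD1 KO 2 and WT 3, and the log2 fold change was -0.40 ± 0.08 (adjusted p = 0.00194). Sgsh (chr11:119343425-119355536, minus strand), N-sulfoglucosamine sulfohydrolase of heparan sulfate breakdown, lies on chromosome 11, as does Gaa. Its values were 1349, 1632 and 1721 in RIG-I-deficient libraries, against 1756, 1875 and 2259 in those with both sensors. The groups did not overlap, and the log2 fold change was -0.28 ± 0.07 (adjusted p = 0.00533). Ids, the sulfatase iduronate 2-sulfatase, had -0.19 ± 0.08 (adjusted p = 0.0843) and Hgsnat, the membrane-bound acetyltransferase of heparan sulfate breakdown, -0.10 ± 0.09 (adjusted p = 0.415).

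Among the activators and soluble cofactors, Grn and Psap were lower and Gm2a and Npc2 were not called. Grn (chr11:102430315-102437048) encodes progranulin, which is cleaved to granulins in lysosomes and whose complete loss in people causes a neuronal ceroid lipofuscinosis. Its normalized counts were 65933, 59689, 60682 and 58991 in the RIG-I KO libraries and 67896, 54497, 60685 and 58411 in SAMHD1 RIG-I DKO, against 85379, 74291, 80754 and 89102 in SAMHD1 KO and 90209, 90140.3, 73139.7, 82314 and 90813 in WT. The groups did not overlap, and the log2 fold change was -0.46 ± 0.07 (adjusted p = 0.000383). Psap, the precursor of the saposins that present sphingolipids to their hydrolases, was second in abundance among the 42 genes per kilobase of exon. It had 98701, 106138 and 116569 (lowest, median and highest) in RIG-I-deficient libraries, against 111896, 142659 and 147238 in those with both sensors. Only SAMHD1 RIG-I DKO 3 exceeded the lowest of the libraries with both sensors, and the log2 fold change was -0.33 ± 0.08 (adjusted p = 0.00503). Npc2, the soluble partner of NPC1 in cholesterol export, had a value of the opposite sign, 0.16 ± 0.10 (adjusted p = 0.262), and Gm2a, the GM2 ganglioside activator, had -0.22 ± 0.09 (adjusted p = 0.0677).

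Of the 9 membrane proteins, Npc1, Laptm5 and Ctns were called lower. Npc1 (chromosome 18) encodes the transporter that moves cholesterol out of lysosomes. It had 2454, 2399, 2487 and 2425 in the RIG-I KO libraries and 2445, 2293, 2595 and 2456 in SAMHD1 RIG-I DKO, against 3567, 3109, 3203 and 2704 in SAMHD1 KO and 3383, 3762, 3323, 2727 and 3452 in WT. The RIG-I-deficient libraries lay close together and below all 9 others, by a narrow gap to SAMHD1 KO 4, and the log2 fold change was -0.40 ± 0.08 (adjusted p = 0.00106). Laptm5, a lysosomal membrane protein of blood cells, had 101201, 106816 and 130624 in RIG-I-deficient libraries, against 113362, 142893 and 160813 in those with both sensors. The ranges overlapped through RIG-I KO 2 and SAMHD1 RIG-I DKO 1 on the one side and SAMHD1 KO 2 and WT 4 on the other, and the log2 fold change was -0.36 ± 0.09 (adjusted p = 0.00739). Ctns, the exporter of cystine, had -0.26 ± 0.07 (adjusted p = 0.00984).

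Lamp1 and Lamp2, the major glycoproteins of the lysosomal membrane, were not called, with log2 fold changes of -0.14 ± 0.08 (adjusted p = 0.183) and 0.15 ± 0.12 (adjusted p = 0.383). Lamp1 had 43765, 46301 and 48918 in RIG-I-deficient libraries, against 39839, 53458 and 60569 in those with both sensors, where SAMHD1 KO 2 and WT 3 gave the lowest values. Without these 2 libraries Lamp1 was at -0.24 (adjusted p = 0.00106), and no RIG-I-deficient library reached any of the 7 others. Mcoln1, the lysosomal calcium channel TRPML1, behaved in the opposite way. Its counts were 2574 in SAMHD1 KO 2 and 1559.9 in WT 3, where the other 23 libraries had 689 to 1082. Cd63, a tetraspanin of late endosomes, was the most variable member over the genotypes, from 1364 to 3172 within SAMHD1 RIG-I DKO alone. Cln3, a membrane protein lost in juvenile Batten disease, had -0.18 ± 0.08 and Scarb2, the receptor that carries glucocerebrosidase to lysosomes, 0.02 ± 0.10; neither was called.

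Of 7 proteases, Ctsa and Tpp1 were lower. Ctsa, the protective protein cathepsin A that stabilises beta-galactosidase and neuraminidase, had 21597, 22754 and 24795 in RIG-I-deficient libraries, against 21238, 27121 and 31199.7 in those with both sensors. WT 3 was the lowest of all these libraries and the other 8 with both sensors lay above every RIG-I-deficient one, and the log2 fold change was -0.26 ± 0.06 (adjusted p = 0.00543). Tpp1, tripeptidyl peptidase 1, had 5069, 5299 and 5833 in RIG-I-deficient libraries, against 5597, 6311 and 7076 in those with both sensors, with a log2 fold change of -0.22 ± 0.06 (adjusted p = 0.0136). The abundant aspartic protease Ctsd and the cysteine proteases Ctsb and Ctsl were not called, at -0.12 ± 0.08 (interval -0.29 to 0.04), -0.09 ± 0.10 (-0.30 to 0.13) and 0.13 ± 0.08 (-0.04 to 0.29). Ctsz, a carboxypeptidase, had -0.14 ± 0.07 (adjusted p = 0.12). Ctsh, an aminopeptidase, had the most positive value of the 42, 0.35 ± 0.15 (adjusted p = 0.0949). Its counts were 6198 in WT 3 and 8755 in SAMHD1 KO 2, the lowest of all libraries, and without them the log2 fold change was 0.13. Of the 4 lipid and acyl hydrolases, Smpd1, acid sphingomyelinase, was lower (-0.30 ± 0.08, adjusted p = 0.00807). Lipa, lysosomal acid lipase, Asah1, acid ceramidase, and Ppt1, a protein thioesterase, were not called, at -0.10 ± 0.11, 0.17 ± 0.09 and 0.11 ± 0.08.

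Transcript of Tfeb itself, the regulator of the pathway, did not pass the test. It had 763, 788, 799.7 and 724 normalized counts in the RIG-I KO libraries and 857, 855, 812 and 692 in SAMHD1 RIG-I DKO, against 784, 604, 854 and 817 in SAMHD1 KO and 741, 859, 658, 855 and 850.3 in WT. The ranges overlapped widely, and the log2 fold change of 0.02 ± 0.09 had an interval of -0.16 to 0.21 (adjusted p = 0.891).

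**Figure D3:**
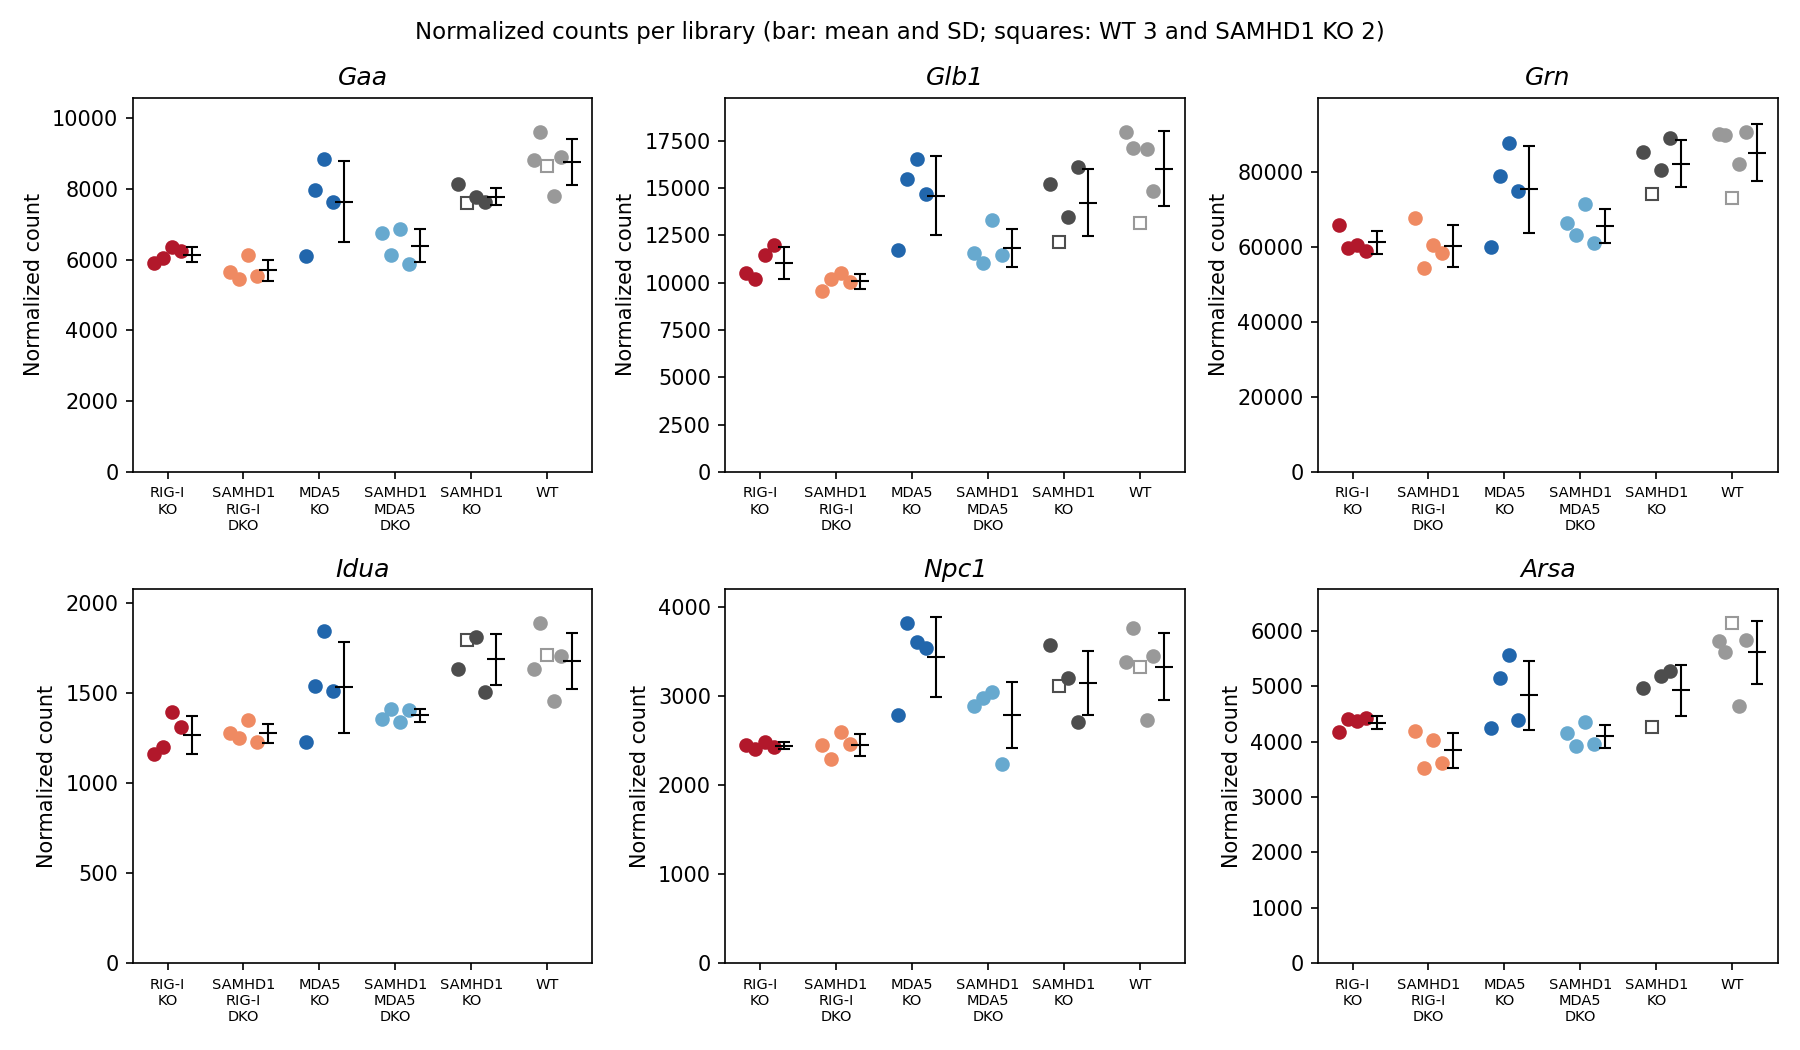
Normalized counts (y axis, linear, from 0) of Gaa, Glb1, Grn, Idua, Npc1 and Arsa in each library by genotype (x axis), with mean and SD. RIG-I KO and SAMHD1 RIG-I DKO are the lowest or among the lowest genotypes in each gene, below SAMHD1 KO and WT except for SAMHD1 KO 2 in Arsa, with SAMHD1 MDA5 DKO and MDA5 KO 1 between or near them.

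In 6 of the 42 genes (Gaa, Glb1, Grn, Idua, Npc1 and Sgsh), all 8 RIG-I-deficient libraries lay below all 9 libraries with both sensors. This is 14.3% of the members, against 2.22% of all genes in that direction, and none of the 42 lay wholly above, against 2.96%. Without SAMHD1 KO 2 and WT 3 the count was 15 genes, 35.7%, against 4.75% of all genes, and again none lay above, against 4.74%. Added to the first 6 were Arsa, Arsb, Ctsa, Ctsd, Lamp1, Man2b1, Naglu, Psap and Smpd1. None of the 42 separated the 8 RIG-I-deficient libraries from all 17 others, where 0.377% of all genes did so in the lower direction.

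**Figure D4:**
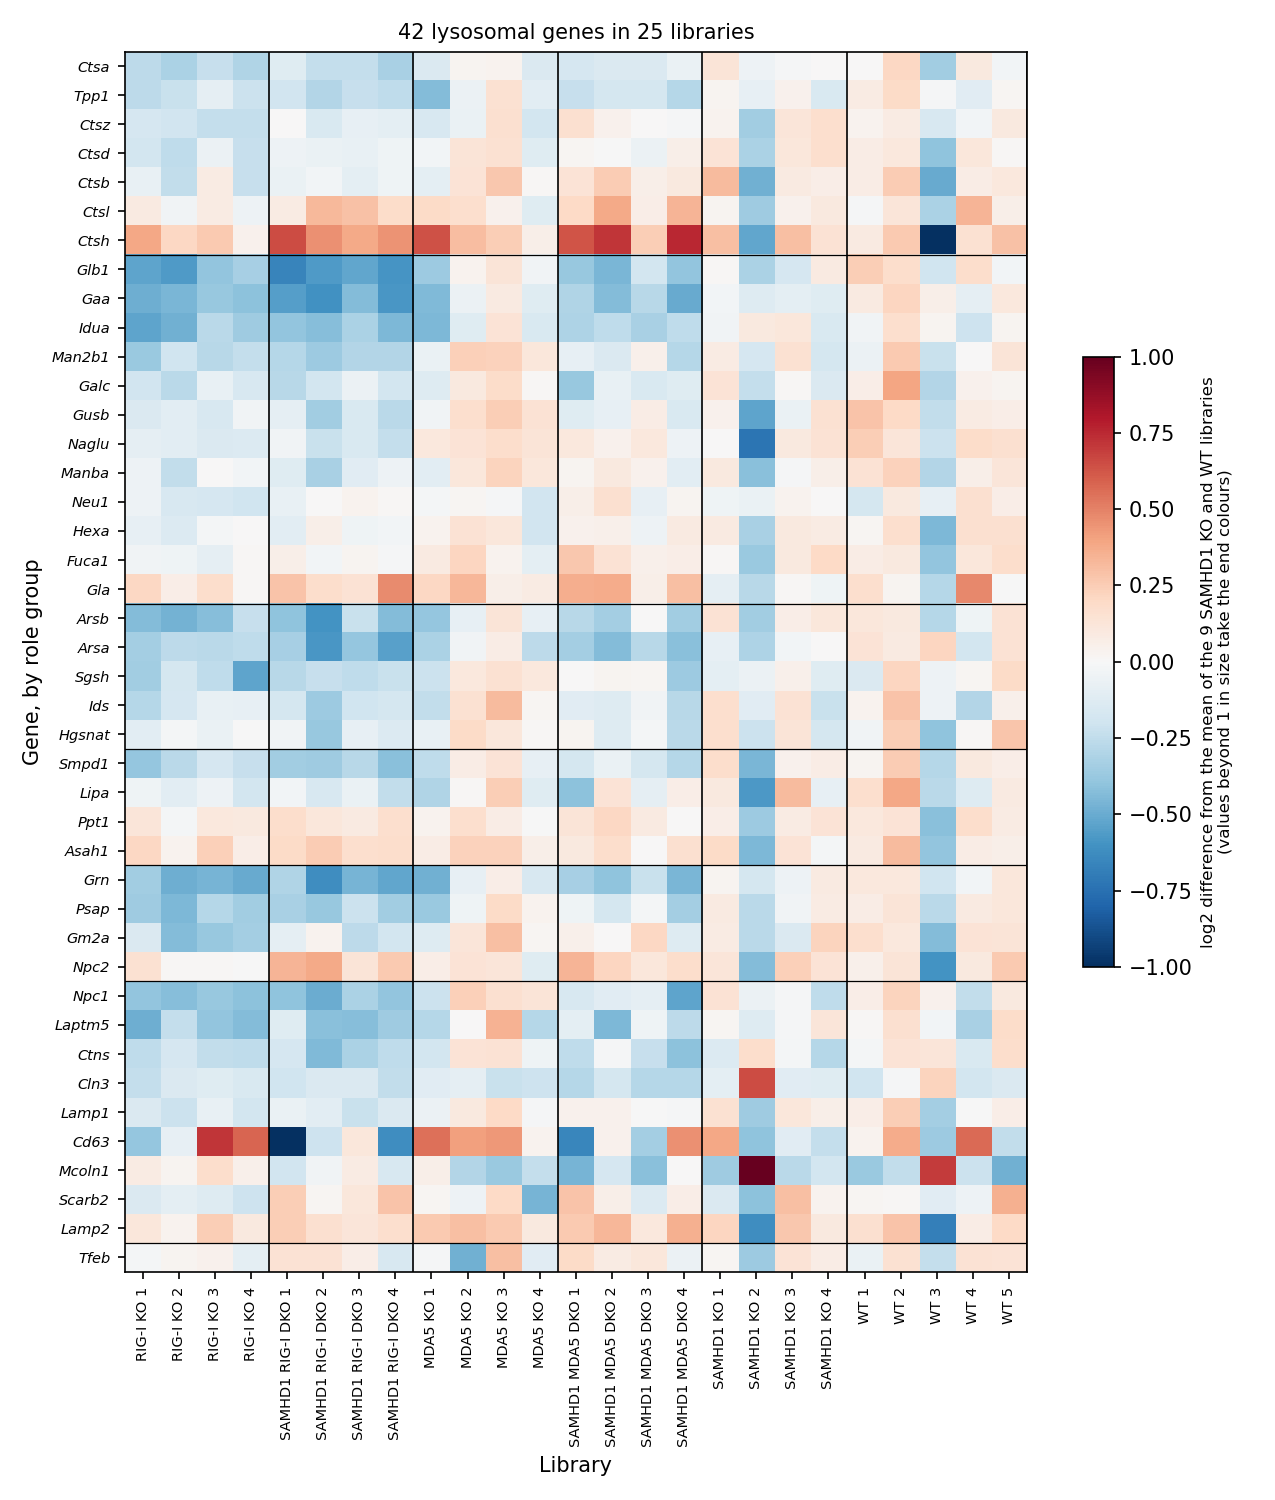
Log2 difference of each of the 42 genes (rows, by role group) from its mean over the 9 SAMHD1 KO and WT libraries, in 25 libraries (columns, by genotype). Blue, lower, values fill the rows of Glb1, Gaa, Idua, Grn, Npc1, Arsa and Arsb in the 8 RIG-I-deficient libraries, and SAMHD1 KO 2 and WT 3 are blue in many of the other rows and red for Mcoln1 and Cln3.

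Loss of RIG-I was then examined with SAMHD1 present and without it. The 2 comparisons set different libraries against each other but take their estimate of spread from the same fit of 25 libraries. In RIG-I KO against WT, 7 genes were lower and none higher (16.7% of the members, against 2.97% of all genes lower and 1.25% higher): Gaa, Glb1, Grn, Idua, Npc1, Arsa and Sgsh. In SAMHD1 RIG-I DKO against SAMHD1 KO, 7 were lower and none higher (16.7%, against 4.85% lower and 5.62% higher): Gaa, Glb1, Grn, Idua, Arsa, Arsb and Npc1. Of these, 6 were called in both, 85.7% of each list, and the matching overlap of calls over all genes was not counted. Among the 6004 genes at least as abundant as the least abundant member, 4.46% were lower and 1.05% higher in RIG-I KO against WT. In SAMHD1 RIG-I DKO against SAMHD1 KO, 7.38% of these genes were lower and 6.6% higher. Gaa had -0.51 ± 0.08 (adjusted p = 0.0058) in RIG-I KO over WT and -0.45 ± 0.09 (adjusted p = 0.00902) in SAMHD1 RIG-I DKO over SAMHD1 KO. Glb1 had -0.53 ± 0.11 (adjusted p = 0.0129) and -0.49 ± 0.11 (adjusted p = 0.0161), and Npc1 -0.44 ± 0.10 (adjusted p = 0.0231) and -0.36 ± 0.11 (adjusted p = 0.0417), in the same order. Sgsh, called with SAMHD1 present (-0.37 ± 0.10, adjusted p = 0.0323), had -0.19 ± 0.10 (adjusted p = 0.237) without it. Arsb, called without SAMHD1 (-0.41 ± 0.12, adjusted p = 0.0383), had -0.40 ± 0.12 (adjusted p = 0.0522) with it. The sign was the same in 35 of the 42 genes (83.3%), where it was the same in 74% of all genes. Of the 42, 29 were negative in both (69.0%, against 39.2% of all genes).

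Whether the effect of RIG-I loss depended on SAMHD1 was tested by the interaction, and no member passed, nor did any of the 13252 genes. Of the 42 interaction values 35 were positive and 7 negative (16.7% negative, against 51.3% of all genes). Their median was 0.062, against -0.006 over all genes. Since members are not replicates of one another, this split carries no test. At an unadjusted p under 0.05 limma found 1 member, Scarb2 (0.41 ± 0.19), and 375 genes; voom called 0 members. The intervals were wide: that of Gaa ran from -0.20 to 0.31 and that of Gla from -0.01 to 0.67. The counts within each background rested on few libraries and on the shared estimate of spread. When the fit held RIG-I KO and WT alone, limma called none of the 42 genes and 0.00755% of all genes, and with SAMHD1 RIG-I DKO and SAMHD1 KO alone it called 3, all lower (1.28% of all genes lower and 2.84% higher). Without SAMHD1 KO 2 and WT 3, RIG-I KO against WT gave 20 lower and 1 higher (7.89% and 7.86% of all genes), and SAMHD1 RIG-I DKO against SAMHD1 KO 14 lower and none higher (7.53% and 8.48%). Leaving out single libraries gave 1 (without RIG-I KO 2) to 13 (without WT 3) for RIG-I KO against WT. For SAMHD1 RIG-I DKO against SAMHD1 KO it gave 2 (without SAMHD1 RIG-I DKO 2) to 10 (without WT 3). Of all genes, 3.15% were lower and 1.31% higher in the first without WT 3, and 6.75% and 9.68% in the second.

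**Figure D5:**
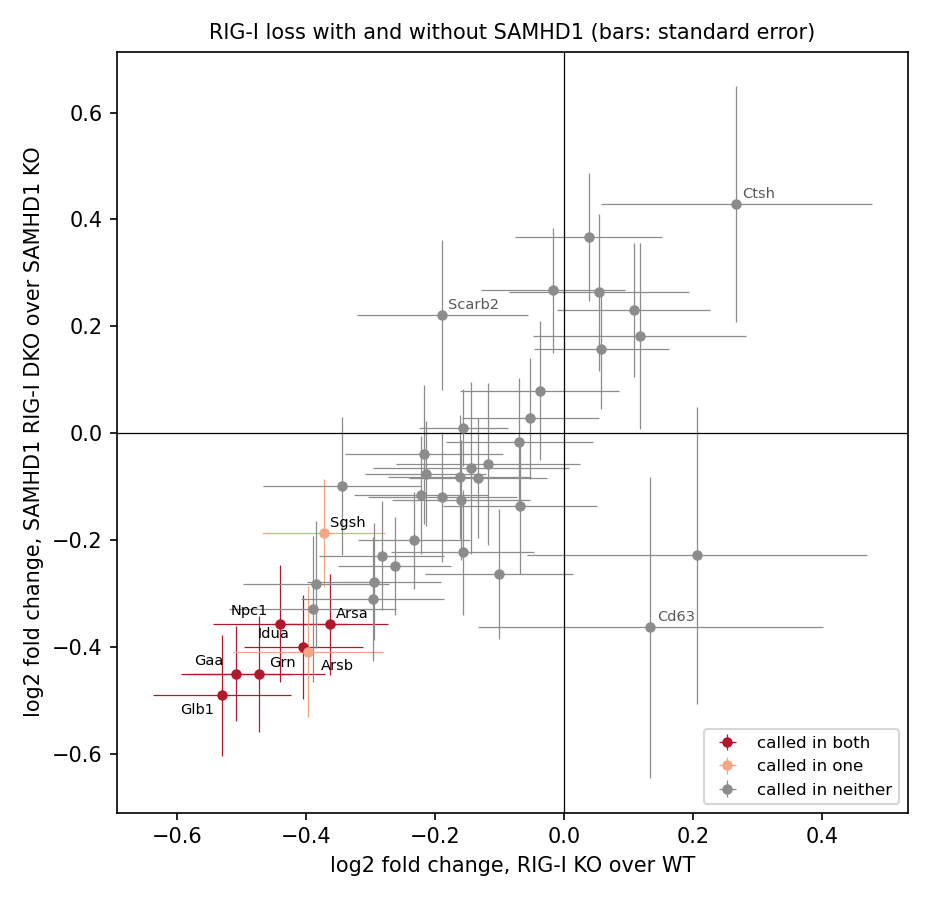
Log2 fold changes of the 42 genes in RIG-I KO over WT (x axis) and in SAMHD1 RIG-I DKO over SAMHD1 KO (y axis), with standard errors as bars. The 6 genes called in both (Gaa, Glb1, Grn, Idua, Npc1 and Arsa, red) lie together at -0.36 to -0.53 on both axes.

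Loss of MDA5 was set beside loss of RIG-I. In MDA5 KO against WT no member passed (0 of 42, against 0.0302% of all genes higher and 0.0377% lower). Unadjusted p under 0.05 was reached by 699 of 13252 genes and by 2 members, Gaa (-0.21 ± 0.08) and Arsa (-0.22 ± 0.09), and voom called 0. In SAMHD1 MDA5 DKO against SAMHD1 KO no member passed either, against 0.0528% higher and 0.0679% lower of all genes, with 9 members and 3156 of the 13252 genes at an unadjusted p under 0.05, and 0 members called by voom. Without WT 3 that comparison gave 2 higher, Ctsh and Gla, and 2 lower, Gaa and Grn (8.17% of all genes higher and 2.88% lower), and without both SAMHD1 KO 2 and WT 3 it gave 2 lower, Arsa and Grn, and none higher (0.664% of all genes lower and 3.37% higher). Averaged over both backgrounds, 3 members were lower and none higher in MDA5-deficient lines than in lines with both sensors (7.14%, against 1.49% of all genes lower and 3.67% higher). They were Gaa (-0.25 ± 0.06, adjusted p = 0.0365), Arsa (-0.24 ± 0.07, adjusted p = 0.0424) and Grn (-0.26 ± 0.07, adjusted p = 0.0488). These calls are near the threshold: 0 to 5 members were called when single libraries were left out. When MDA5 and control genotypes were fitted alone it was 0, beside 0.0981% of all genes lower and 0.0302% higher. With quantile normalization 7 were lower and none higher (1.89% of all genes lower and 4.63% higher), and without SAMHD1 KO 2 and WT 3 it was 6 lower and none higher (1.01% and 2.22%). Gaa illustrates the spread, with 6119, 7974, 8852 and 7641 in MDA5 KO and 6746, 6132, 6857 and 5869 in SAMHD1 MDA5 DKO. MDA5 KO 1, SAMHD1 MDA5 DKO 2 and SAMHD1 MDA5 DKO 4 lay within the RIG-I-deficient range, SAMHD1 MDA5 DKO 1 and 3 between it and SAMHD1 KO, and the other 3 MDA5 KO libraries within the range of SAMHD1 KO and WT.

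The difference between RIG-I-deficient and MDA5-deficient lines was tested directly. It passed for 5 members, all lower in RIG-I-deficient lines (11.9%, against 3.43% of all genes lower and 1.34% higher). Among the 6004 genes at least as abundant as the least abundant member, 5.05% were lower and 0.683% higher. Npc1 had 2293, 2449 and 2595 in RIG-I-deficient libraries and 2239, 3010.1 and 3816 in MDA5-deficient ones (lowest, median and highest), a log2 fold change of -0.33 ± 0.08 (adjusted p = 0.0178). SAMHD1 MDA5 DKO 4 lay below all RIG-I-deficient libraries and the other 7 MDA5-deficient libraries above them. Glb1 had -0.31 ± 0.08 (adjusted p = 0.0272), Man2b1 -0.30 ± 0.08 (adjusted p = 0.0291), Sgsh -0.26 ± 0.07 (adjusted p = 0.0342) and Gaa -0.23 ± 0.06 (adjusted p = 0.0346). Of the 42 fold changes 35 were negative, with a median of -0.15, against a median of 0.00 over all genes. With quantile normalization 31 were negative and the median was -0.04, against -0.01 over all genes. Lamp1 was the 1 member whose RIG-I-deficient libraries, 43765 to 48918, all lay below the MDA5-deficient ones, 48995 to 58589.6, a state that 1.44% of all genes shared, and none lay above (1.12%). For Idua, Grn and Arsa the difference between the sensors did not pass (adjusted p = 0.114, 0.12 and 0.296). The count of 5 moved with the processing: it was 1, lower, with quantile normalization (2.78% of all genes lower and 1.03% higher), and 14 lower and 1 higher when only these 4 genotypes were fitted (8.91% and 8.17%). Without SAMHD1 KO 2 and WT 3, which enter this comparison through the spread alone, it was 16 lower and 1 higher (8.57% and 8.05%). Markers of other cells differed here too: 8 of 10 B cell markers (median log2 fold change -3.64) and 5 of 5 mast cell markers (median -3.18) were lower in RIG-I-deficient than in MDA5-deficient lines, and their part in the lysosomal values was not tested.

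No member was called for loss of SAMHD1. In SAMHD1 KO against WT, 0 of 42 passed (0.00755% of all genes were called higher and 0.00755% lower), 0 members and 631 of 13252 genes had an unadjusted p under 0.05, and voom called 0. Of the 42 fold changes 35 were negative there (83.3%, against 48.8% of all genes), with a median of -0.05. In SAMHD1 MDA5 DKO against MDA5 KO it was 0 (0% of all genes higher and 0.00755% lower), with 6 members and 525 genes unadjusted and 29 of 42 negative (69%, against 49.6% of all genes), and in the 4 SAMHD1 RIG-I DKO libraries set against RIG-I KO 0 (0.0604% of all genes higher and 0.00755% lower), with 19 of 42 negative and 470 genes and 2 members unadjusted (Cd63, -0.66 ± 0.28, and Scarb2, 0.31 ± 0.14); voom called 0 in both. Over the 3 comparisons together, 0 passed (background 0.566% higher and 0.174% lower), with 6 members and 931 genes unadjusted, 0 by voom and 25 of 42 negative. The smallest p belonged to Arsa, at -0.20 ± 0.05 (adjusted p = 0.111), and Gaa, at -0.17 ± 0.05 (adjusted p = 0.165). A p that misses the threshold does not show that the levels were alike: for Gaa in SAMHD1 KO over WT the interval of the log2 fold change was -0.34 to 0.01. The interaction of SAMHD1 and MDA5 called 0 members, with 0 unadjusted and 0 by voom.

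Other genes of the pathway were counted in RIG-I-deficient lines against lines with both sensors. Over all genes tested, 13.9% were lower and 12.7% higher. Among the 6004 genes at least as abundant as the least abundant member, 21.3% were lower and 13.5% higher. The counts of each list stand beside these shares. Of 25 other lysosomal hydrolases tested, 6 were lower (24%) and 1 higher (4%). The lower ones included the phospholipase-like Plbd2 (-0.35 ± 0.07), the phospholipase Pla2g15 (-0.36 ± 0.11) and the cathepsins Ctsf (-0.21 ± 0.07) and Ctse (-0.82 ± 0.23). Aga, which cleaves the asparagine link of glycoproteins, was higher (0.34 ± 0.07). Of 21 other membrane proteins, 6 were lower (28.6%), Clcn7 (-0.30 ± 0.07), Sidt2 (-0.30 ± 0.07), Slc29a3 (-0.28 ± 0.09), Cd68 (-0.23 ± 0.07), Cd164 (-0.18 ± 0.05) and Tmem175 (-0.15 ± 0.05), and 2 were higher (9.52%), Mfsd8 (0.26 ± 0.07) and Laptm4a (0.25 ± 0.09). Of 16 subunit genes of the V-ATPase, the proton pump that acidifies lysosomes, 3 were higher (18.8%), Atp6v1f (0.56 ± 0.12), Atp6v0b (0.52 ± 0.10) and Atp6v1g1 (0.43 ± 0.13), and 2 lower (12.5%), Atp6v0a1 (-0.31 ± 0.08) and Atp6v0c (-0.19 ± 0.06). Of 20 genes of transcriptional and mTORC1 control, 4 were higher (20%), Lamtor5 (0.69 ± 0.13), Lamtor3 (0.30 ± 0.07), Rraga (0.24 ± 0.08) and Lamtor4 (0.23 ± 0.08), which belong to the complex that anchors mTORC1 on lysosomes, and 3 were lower (15%), Gpnmb (-0.64 ± 0.19), Tfe3 (-0.30 ± 0.06) and Sqstm1 (-0.17 ± 0.06). Tfe3 encodes a relative of TFEB (adjusted p = 0.00088). Of 12 genes of delivery to lysosomes, Vps29 (0.65 ± 0.12) and Vps35 (0.34 ± 0.11) of the retromer were higher (16.7%), and Nagpa (-0.17 ± 0.06) and Gga1 (-0.14 ± 0.05) lower (16.7%). With quantile normalization the counts (higher and lower) were 3 and 5 for the hydrolases, 3 and 7 for the membrane proteins, 5 and 3 for the V-ATPase, 5 and 2 for mTORC1 control, and 4 and 1 for delivery. Without SAMHD1 KO 2 and WT 3 they were 1 and 13 for the hydrolases, 1 and 8 for the membrane proteins and 3 and 6 for the V-ATPase. For mTORC1 control they were then 2 and 3, and for delivery 2 and 2. Of all genes, 17.6% were higher and 17.5% lower in that fit, and 12.3% and 13.9% with quantile normalization.

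Markers of other cells moved with the same comparison. Of 10 B cell markers 9 were lower in RIG-I-deficient lines (median log2 fold change -4.05), of 3 T cell markers tested 3, of 5 mast cell markers 5 (median -4.07), and of 4 dendritic cell markers 2 were lower. The summed mast cell markers ran from 0 to 16.7 normalized counts in the 8 RIG-I-deficient libraries, against 18 to 1280 in the 9 with both sensors, and Kit was at 0 in 5 of the 8. The summed B cell markers ran from 1847 to 2275 in RIG-I-deficient libraries, against 1566 to 6280.0 in those with both sensors. Bank1, the 1 B cell marker not called, gave 1769.9 to 2200.3 of these in RIG-I-deficient libraries and 1422 to 2229.7 in those with both sensors. The summed T cell markers ran from 4.2 to 11.7, against 12 to 72.4. SAMHD1 KO 2 and WT 3 had summed B cell markers of 1769 and 1566, below the other libraries with both sensors. Their summed mast cell markers were 292 and 191, within the range of the others. Their summed neutrophil and eosinophil markers, 13689 and 9357, were the highest of all 25 libraries. Their summed markers of small macrophages and monocytes were 16961 and 4471, and that of WT 3 was the lowest of all 25. Of 11 markers of large peritoneal macrophages 4 were lower in RIG-I-deficient lines, Csf1r (-0.43 ± 0.09), Selp (-0.36 ± 0.06), Fn1 (-0.34 ± 0.12) and Prg4 (-0.32 ± 0.11). None was called higher, and 8 of the 11 fold changes were negative. Timd4 had a higher median in RIG-I-deficient libraries, 27393 normalized counts, against 23882 in those with both sensors. The sum of all 11 markers ran from 1815316 to 2183980 in RIG-I-deficient libraries, against 1932614 to 2978990 in those with both sensors. None of 7 markers of small macrophages and monocytes and none of 3 erythroid markers was called, and S100a8 was the 1 of 3 neutrophil and eosinophil markers called, higher (0.88 ± 0.21). The part of these cells in the lysosomal values was not tested.

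Levels per kilobase of exon, averaged over the 25 libraries, spanned from Ctsd (55575 normalized counts per kilobase), Psap (45127) and Laptm5 (33972) to Gla (206), Galc (151), Tfeb (138) and Mcoln1 (127). The genes called lower in RIG-I-deficient lines were found across this range, from Psap, Laptm5 and Grn at ranks 2, 3 and 4 to Arsb at rank 38. They lie on 11 chromosomes. Of the 6 members on chromosome 11, 4 were called (Gaa, Sgsh, Grn and Ctns), and the share over all genes of that chromosome was not counted. The spread of log2 means over the 6 genotypes (SD) was widest for Cd63 (0.28), Glb1 (0.26), Ctsh (0.24) and Gaa (0.24), and narrowest for Hexa (0.0349).

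The authors' deposited table of comparisons gave 13 of the 42 genes lower and none higher in RIG-I KO against WT at an adjusted p under 0.05 (against 6.09% of its genes lower), and 15 lower in SAMHD1 RIG-I DKO against WT (9.17%). In the authors' deposited table the log2 fold change was -0.51 for Gaa (adjusted p = 1.49e-06) and -0.54 for Glb1 (adjusted p = 0.000179) in RIG-I KO over WT. The direction of the authors' deposited table is SAMHD1 KO over SAMHD1 RIG-I DKO. For it 10 members were called positive, that is lower in SAMHD1 RIG-I DKO, as were 7.5% of the genes. Gla was called negative, as were 7.46% of the genes. Gaa had 0.45 (adjusted p = 8.08e-05) there, in the authors' deposited table. The same table gave 4 members lower in SAMHD1 MDA5 DKO against WT (1.07% of genes). It gave 2 lower in SAMHD1 MDA5 DKO relative to SAMHD1 KO (2.62% of genes). In MDA5 KO against WT it called 0 members, beside 0.113% of genes lower and 0.0452% higher. In SAMHD1 KO against WT it also called 0, beside 0.0226% lower and 0.173% higher.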

How the data were processed

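RNA-seq of 25 libraries was used. The authors deposited variance-stabilized log2 values per library and, per genotype, mean normalized counts (signal) with log2 fold changes and p-values of their comparisons, per the file headers. STAR, Salmon, R 4.1.2 and DESeq2 are named in the submitters' processing notes. The labels' protocols name another aligner (pBWA) and counter (bedtools), and the sources do not say which made the table. Inverting the log2 transform gave normalized counts that matched the deposited means to a relative difference of 8.82e-14, and 100% of values were whole reads within 0.01. Column names could not be tied to sample titles beyond the genotype.

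The main test was limma 3.58.1 (R 4.3.3, trend and robust with statmod 1.5.0) on log2(normalized count + 1), two-sided, with all 25 libraries and genotype as the only factor. Genes had at least 10 normalized counts in at least 4 libraries (13252 tested, 14 left out), with Benjamini-Hochberg adjustment and a threshold of 0.05. Low genes have their fold change understated on this scale. 13 comparisons were made. Alternatives were no filter, pseudocounts of 10 and 0.5, the deposited log2 values, quantile normalization, voom on recovered reads, only the genotypes compared, and libraries left out.

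Members and lists were chosen with earlier results of these data known. Named with values were members called in any comparison, the 3 of smallest p in each comparison, the most and least variable of each role group, and Tfeb, Lamp1, Ctsd, Ctsb, Ctsl, Gaa and Glb1; pathway genes were named where called, except a few that are not reported here. The authors counted without a statement on strand in the sources used here, so overlapping antisense transcripts cannot be told apart.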

Additional observations from a re-analysis of the deposited data

Results flagged for a closer look

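In 180 groups of 4 or 5 libraries, 22 values lay apart from the rest of their genotype by Dixon's criterion, which chance alone meets in about 1 in 20 groups. Values are normalized counts. WT library 3 was the lowest of WT for Ctsb (81721, nearest 121610.4), Ctsd (100488, nearest 134228), Ctsh (6198, nearest 13379), Hexa (29301, nearest 40623), Naglu (4266, nearest 5369), Ppt1 (4818, nearest 6842), Psap (111973, nearest 142178) and Npc2 (22099, nearest 34608). SAMHD1 KO library 2 was the lowest of SAMHD1 KO for Ctsd (106748, nearest 143742), Ctsl (5029, nearest 6555), Hexa (32024, nearest 42473), Naglu (2981, nearest 4947), Arsb (1379, nearest 1837) and Ppt1 (4999.9, nearest 6765). Low values elsewhere were Man2b1 in SAMHD1 RIG-I DKO 2 (84344), Ppt1 in RIG-I KO 2 (6352), Sgsh in MDA5 KO 1 (1676) and SAMHD1 MDA5 DKO 4 (1509.7), and Npc1 in SAMHD1 MDA5 DKO 4 (2239). High values were Npc2 in RIG-I KO 1 (37086), Ctns in RIG-I KO 2 (864) and Scarb2 in WT 5 (17769).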

How the results depend on the processing

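No paired analysis was possible because the columns carry no replicate number and could not be tied to titles. In RIG-I-deficient lines against lines with both sensors, all 15 members stayed called lower without the filter, with either other pseudocount, on the deposited values, with voom, with only the genotypes compared, and in each fit without 1 library (15 to 20 called). With quantile normalization 13 of the 15 were called. Without SAMHD1 KO 2 and WT 3, the number of members called was 27 for RIG-I-deficient lines against lines with both sensors, 21 for RIG-I KO against WT, 14 for SAMHD1 RIG-I DKO against SAMHD1 KO, 2 for SAMHD1 MDA5 DKO against SAMHD1 KO (both lower, where 0.664% of all genes were lower and 3.37% higher), 6 for MDA5-deficient lines against lines with both sensors (all lower, 1.01% and 2.22%) and 17 for RIG-I-deficient against MDA5-deficient lines (16 lower and 1 higher, 8.57% and 8.05%). With only the genotypes compared it was 0, 3, 0 and 15 for RIG-I KO against WT, SAMHD1 RIG-I DKO against SAMHD1 KO, MDA5-deficient lines against lines with both sensors and RIG-I-deficient against MDA5-deficient lines. With quantile normalization it was 7 for MDA5-deficient lines against lines with both sensors (1.89% of all genes lower and 4.63% higher). It was 1 for RIG-I-deficient against MDA5-deficient lines (2.78% and 1.03%). Without the libraries of intermediate Samhd1 it was 1 for MDA5-deficient lines against lines with both sensors (0.483% and 0.438%). Leaving out single libraries gave 1 to 13 for RIG-I KO against WT (1 without RIG-I KO 2, 2 without RIG-I KO 1, 3 without RIG-I KO 3 or 4, WT 2 or WT 5, and 13 without WT 3), 2 to 10 for SAMHD1 RIG-I DKO against SAMHD1 KO (2 without SAMHD1 RIG-I DKO 2, 4 without SAMHD1 RIG-I DKO 4), 0 to 4 for SAMHD1 MDA5 DKO against SAMHD1 KO (4 without WT 3), 0 to 5 for MDA5-deficient lines against lines with both sensors (moved in 19 of 25 fits), 1 to 10 for RIG-I-deficient against MDA5-deficient lines (moved in 14 of 25, 10 without MDA5 KO 1) and 0 to 1 over SAMHD1 loss (1 without MDA5 KO 1 or WT 4). Calls over all genes moved too in the fit without WT 3. In RIG-I KO against WT 3.15% were lower and 1.31% higher, where all 25 libraries gave 2.97% and 1.25%. In SAMHD1 RIG-I DKO against SAMHD1 KO it was 6.75% and 9.68%, where all 25 gave 4.85% and 5.62%. Shares for most other fits without 1 library are not given here. Taken as a median over members, the score difference was 0.0257 for SAMHD1 RIG-I DKO against SAMHD1 KO, a change of sign from -0.11 by the mean. It was 0.116 (0.01 by the mean) for SAMHD1 RIG-I DKO set against RIG-I KO and 0.216 (0.06 by the mean) for the interaction of SAMHD1 and RIG-I. The cause of these shifts was not tested. Single-gene values were tallied for members called in a comparison or among its 3 of smallest p. Under all alternatives 1906 of these kept their side of the threshold, called or not, 162 lost a call and 6 gained one. None of these tallied values changed sign. Over all 42 members signs did change: 33 were negative in RIG-I-deficient lines against lines with both sensors, and 30 with quantile normalization. Without SAMHD1 KO 2 and WT 3 it was 36, and Mcoln1 turned from negative to called higher.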
